A study of Mus musculus with 10 samples.

Results

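The genes that encode the vesicular transmitter transporters were examined in the cortical hem (CH) of wild-type and Lmx1a-/- embryos. They are the 3 vesicular glutamate transporters *Slc17a6* (VGLUT2), *Slc17a7* (VGLUT1) and *Slc17a8* (VGLUT3), the GABA and glycine transporter *Slc32a1* (VGAT), the monoamine transporter *Slc18a2* (VMAT2) and the acetylcholine transporter *Slc18a3* (VAChT). These 6 genes were taken by symbol from the 52227 genes of the count table. *Slc17a8* was singled out because its counts differed between the genotypes, so its difference is described here without a test. The other 5 genes entered as its functional relatives and were tested where their counts allowed.

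A vesicular transporter sits in the membrane of the synaptic vesicle and fills it with transmitter, driven by the proton gradient that the vacuolar ATPase builds. Which transporter a neuron uses largely sets which transmitter it releases. VGLUT1 and VGLUT2 serve most of the glutamatergic neurons of the adult cortex and of subcortical regions, while VGLUT3 is known from smaller populations that often also release acetylcholine, serotonin or GABA. The CH is the signaling center at the dorsomedial edge of the telencephalon, next to the choroid plexus, and gives rise to Cajal-Retzius (CR) cells.

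RNA was sequenced from CH taken by laser capture at e13.5, with 1 library from each of 5 wild-type and 5 Lmx1a-/- embryos. The mutants are homozygous for *drJ*, a null allele of the LIM-homeodomain gene *Lmx1a*, in all cells of the body, and both genotypes came from a mixed C57Bl6, FVB and CD1 background. The CH was outlined on neighbouring sections stained for Lmx1a, and all captured sections of an embryo were pooled. The libraries are therefore of whole tissue with progenitors, neurons and any adjacent cells that were caught, and fewer cells of a type cannot be told apart from less RNA per cell.

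Library totals were 19407267 to 33130138 counts in wild-type embryos and 19145952 to 36462780 in Lmx1a-/- embryos, and 20.6% to 27.6% of them were mitochondrial. A level of 3 counts, the most that a count of 0 allows, corresponded to 0.0831 to 0.163 CPM (counts scaled by library size), with counting error only. Levels are TMM-normalized CPM as mean ± SD over 5 embryos. *Lmx1a* itself ranged from 45.6 to 90.8 CPM in wild-type and from 89.9 to 145 CPM in Lmx1a-/- libraries, so a loss of its transcript did not mark the null allele. It was called higher in the mutants, with a log2 fold change of 0.68. Its false discovery rate was 0.0658 by edgeR's quasi-likelihood test, under the threshold of 0.1. *Xist* stood at 4399 to 5169 CPM in wild-type embryos 2 to 5 and at no more than 1.15 CPM in wild-type embryo 1 and all 5 mutants. Embryo sex was therefore unequal between the genotypes.

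*Slc17a8* (ENSMUSG00000019935) lies on the minus strand of chromosome 10, at chr10:89574020-89621253 of GRCm38, with 13 exon blocks of 4.72 kb in all. Its annotation holds 2 transcripts, and RefSeq lists 2 starts for the gene, which were not matched to these transcripts. The 250 bases before each start (GRCm38.p6, minus strand) are shown because *Lmx1a* encodes a homeodomain protein, and TAATTA is a core that many homeodomain proteins bind. Capitals mark TAATTA, which reads the same on both strands.
Slc17a8, outer start, chr10:89621250-89621499: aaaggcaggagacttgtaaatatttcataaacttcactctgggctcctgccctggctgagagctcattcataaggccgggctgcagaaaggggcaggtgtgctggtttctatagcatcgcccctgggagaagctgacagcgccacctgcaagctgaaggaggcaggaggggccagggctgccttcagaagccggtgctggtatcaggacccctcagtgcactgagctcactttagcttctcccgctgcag
Slc17a8, inner start, chr10:89599816-89600065: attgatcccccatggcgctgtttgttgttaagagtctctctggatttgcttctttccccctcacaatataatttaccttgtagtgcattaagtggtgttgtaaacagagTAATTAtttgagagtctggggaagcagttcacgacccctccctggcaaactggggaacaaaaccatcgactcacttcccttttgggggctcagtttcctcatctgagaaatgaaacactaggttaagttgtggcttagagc
Slc17a6, inner start, chr7:51624387-51624636: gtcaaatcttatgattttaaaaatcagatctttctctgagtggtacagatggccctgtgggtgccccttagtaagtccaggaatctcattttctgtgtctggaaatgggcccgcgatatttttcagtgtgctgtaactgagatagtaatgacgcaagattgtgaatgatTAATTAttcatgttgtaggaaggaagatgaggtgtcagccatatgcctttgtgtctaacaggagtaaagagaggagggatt

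The outer *Slc17a8* window holds no TAATTA and no TAAT on either strand, and it is 57.2% G and C. The inner window, which lies inside the gene and touches none of its exons, is 44.8% G and C and has TAATTA 141 bases before the start. The window before the inner start of *Slc17a6* (plus strand), shown for comparison because it has the match in a gene whose level did not pass the test, has TAATTA 81 bases before the start. Of the 8 windows of the 6 genes these 2 hold TAATTA, and 6 hold TAAT on either strand, a count in which the longer motif is included. Over all 32851 RefSeq windows of this length the shares were 4.84% and 54.9%. Counts per gene do not separate the 2 starts of *Slc17a8*, and the matches are a description of letters only.

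The 3 VGLUT genes are paralogs, and reads could in principle be shared. The coding sequence of *Slc17a8* was identical to that of *Slc17a6* at 73.3% of aligned bases and to that of *Slc17a7* at 72.3%, and the other two were identical at 74.0%. The longest run common to *Slc17a8* and *Slc17a6* was 25 bases. It is printed in capitals with 10 coding bases on each side, since it is where a read would be hardest to place.
Slc17a8, coding bases 268 to 312: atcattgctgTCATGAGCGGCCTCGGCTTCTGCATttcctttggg
Slc17a6, coding bases 214 to 258: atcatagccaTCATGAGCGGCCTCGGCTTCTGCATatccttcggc
The longest run shared by *Slc17a8* and *Slc17a7* was 17 bases, and that of *Slc17a6* and *Slc17a7* was 21 bases. All 3 runs are shorter than the shortest read the authors kept.

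*Slc17a8* was present in every library and was much lower in the mutants. Wild-type embryos 1 to 5 had 27.5, 22.6, 15.03, 20.8 and 28.7 CPM. Lmx1a-/- embryos 1 to 5 had 2.96, 1.47, 2.28, 1.30 and 2.02 CPM. The lowest wild-type library lay far above the highest mutant library, and the mutant signal stayed above the level of 3 counts, with 27 to 89 counts per library against 401 to 777 in wild-type embryos. Wild-type CH averaged 22.9 ± 5.51 CPM against 2.01 ± 0.665 CPM in the mutants, which is 11.4-fold lower (log2 fold change −3.51, SE 0.253). By the most negative log2 fold change it ranked 43 of the 21664 genes compared. In the same fit 2.29% of genes were called lower, 1.72% higher and 4.02% in either direction at a false discovery rate (FDR) under 0.1, and the ranges of the genotypes did not overlap for 4.44% of genes. Those shares are background, since *Slc17a8* was chosen on this contrast.

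**Figure D1:**
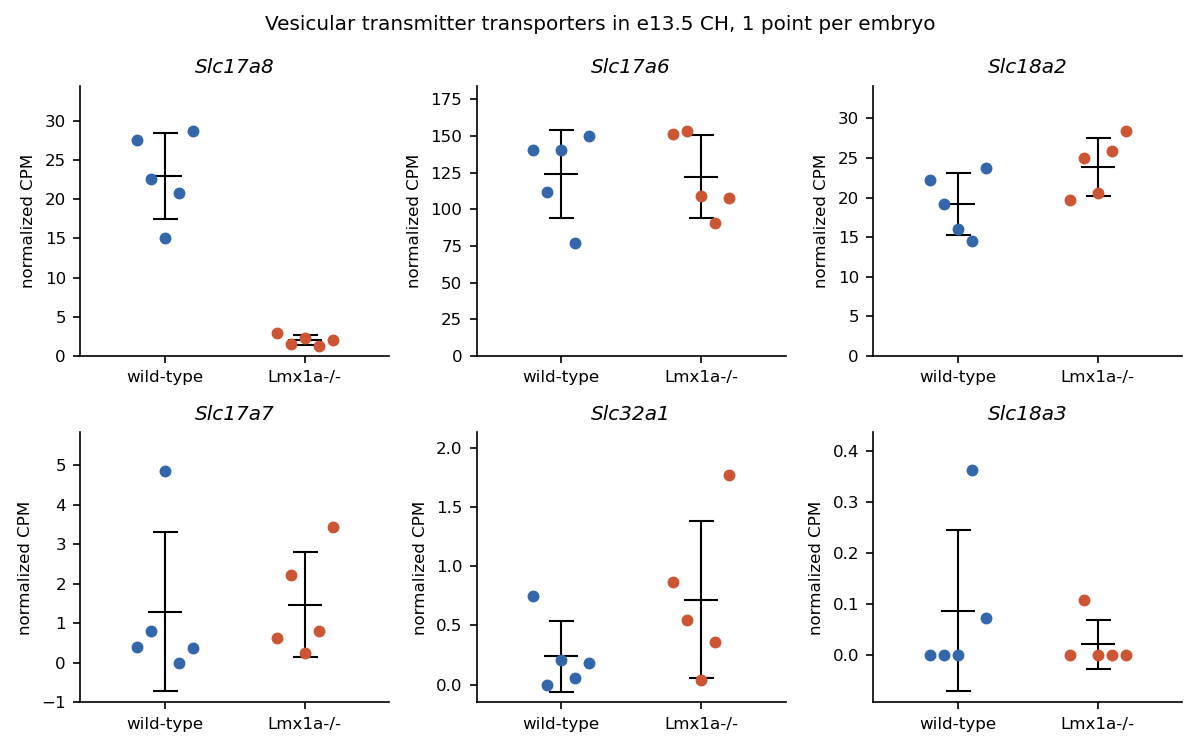
Normalized CPM (linear axes, a scale per gene) of the 6 vesicular transporter genes in 5 wild-type (blue) and 5 Lmx1a-/- (orange) embryos, with 1 point per embryo in the order of embryo number and bars for mean ± SD. The *Slc17a8* points do not overlap between genotypes (15.03 to 28.7 against 1.30 to 2.96 CPM), while the points of the other 5 genes do.

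Wild-type embryo 1 was the wild-type library with the *Xist* level of the mutants, and its *Slc17a8* level of 27.5 CPM was within the range of the other 4. With this embryo alone against the 5 mutants, a set of libraries chosen after the data were seen, the log2 fold change was −3.78. Leaving out each embryo in turn gave −3.69 to −3.38.

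Among wild-type embryos *Slc17a8* and *Lmx1a* had their highest level in the same library, embryo 5 (28.7 and 90.8 CPM), and their lowest in the same library, embryo 3 (15.03 and 45.6 CPM). Among the mutants the embryo with the highest *Lmx1a*, embryo 4 at 145 CPM, had the lowest *Slc17a8*, 1.30 CPM. With 5 embryos per genotype these orders are given as values only.

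Genes of the choroid plexus epithelium, which borders the CH and also uses *Lmx1a*, were lower in the same libraries. Of the 12 genes on that list 11 were tested, 3 fell and none rose past the threshold, with a median log2 fold change of −1.15 against −0.00494 for all genes. The called genes were 27.3% of those tested, where 2.29% of all genes were called lower and 1.72% higher. *Ttr*, the transthyretin that choroid plexus secretes, fell from 78.3 ± 66.9 to 7.23 ± 5.94 CPM (edgeR quasi-likelihood FDR = 0.0512), with overlapping ranges. The summed list was 453, 487, 133, 300 and 423 CPM in wild-type embryos 1 to 5 and 155 to 233 CPM in the mutants. Wild-type embryo 3 was below every mutant on this list, and it also had the lowest *Slc17a8* of the wild-type embryos, 15.03 CPM against 20.8 to 28.7 CPM in the other 4. With the mean of this list as a covariate the log2 fold change of *Slc17a8* was −2.88. The list mean went with genotype, and over all genes this fit called 44 in place of 870, so list level and genotype cannot be told apart in it.

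**Figure D2:**
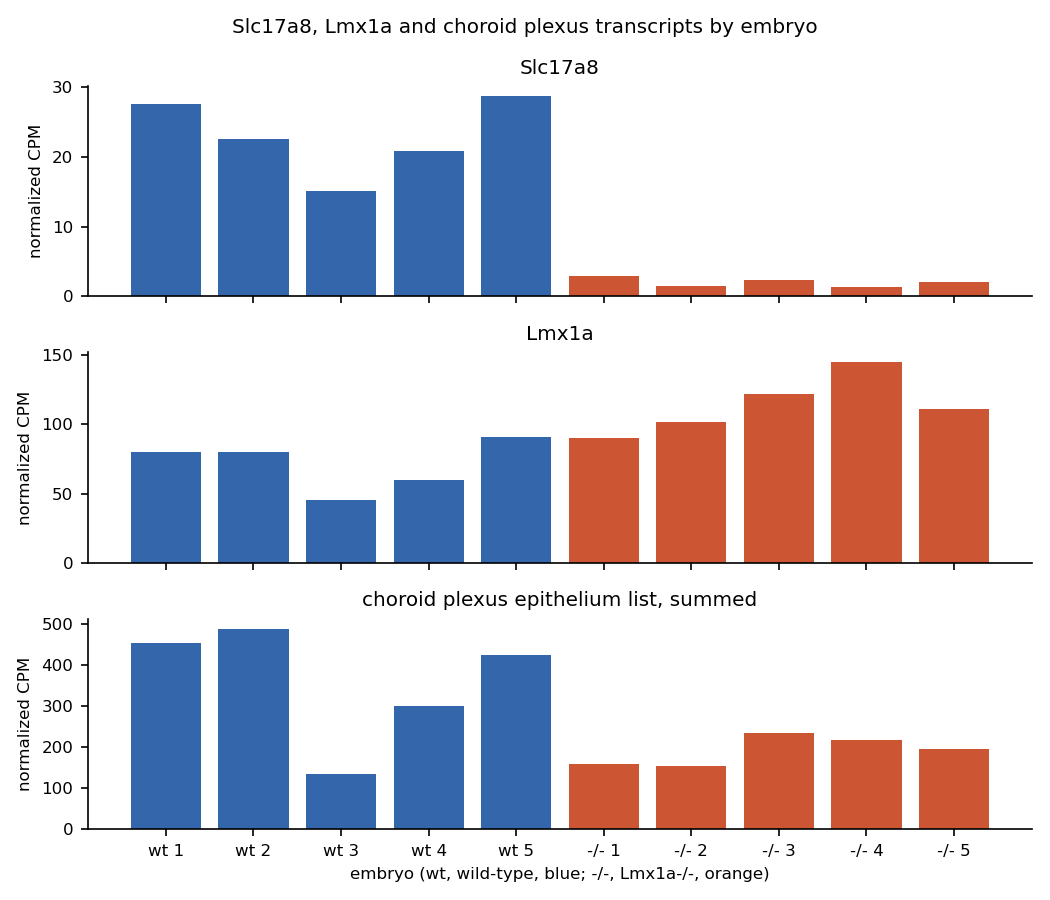
Normalized CPM of *Slc17a8* (top), *Lmx1a* (middle) and the summed choroid plexus epithelium list (bottom) in each embryo, with bars from 0 (wild-type blue, Lmx1a-/- orange). Wild-type embryo 3 has the lowest choroid plexus sum, 133 CPM, and the lowest *Slc17a8* of the wild-type embryos, 15.03 CPM, while the mutants have 1.30 to 2.96 CPM of *Slc17a8*.

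Some CR cell genes were lower as well. Of 11 tested genes of the CR cell list 4 fell and 1 rose, with a median of −0.56, and the summed list was 498 to 709 CPM in wild-type and 317 to 465 CPM in Lmx1a-/- libraries. *Reln*, the secreted protein by which CR cells are recognized, fell with a log2 fold change of −1.06 (FDR = 0.0308 by edgeR). The most negative log2 fold change on the CR list was −1.95, for *Car10*. The 13 other genes that the study used as CH markers were all lower, from −3.17 (*Ccdc3*) to −0.58 (*Peg3*) with a median of −1.34. That list was chosen on these embryos and is not independent evidence of its direction. The study took its CH markers, *Slc17a8* among them, from its most changed genes and kept those with mainly CH expression in public in situ images. In a separate experiment it knocked down *Lmx1a* in the CH of wild-type embryos. By qRT-PCR it reported lower levels of every target tested there, and its primers include *Slc17a8*, *Ccdc3* and *Adamts1*. Of a hand-written CH list with *Lmx1a* and Wnt and Bmp genes, 5 of 12 fell and 1 rose, *Lmx1a* itself. Of the lists of other cells, red blood cell genes summed to 617 to 1463 CPM in wild-type and 261 to 568 CPM in Lmx1a-/- libraries with 0 of 7 called. Of the meningeal genes 2 of 8 fell, and of the cortical neuroepithelium genes 2 of 8 rose. Over all genes 2.29% were called lower and 1.72% higher. All 8 cortical neuroepithelium genes had a log2 fold change above 0, with a median of 0.40. They summed to 456 to 866 CPM in wild-type and 811 to 1067 CPM in Lmx1a-/- libraries. None of the 8 endothelial or of the 8 microglial genes was called. The part of these cells, of CR cell number or of captured choroid plexus in the *Slc17a8* difference was not tested.

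*Slc17a6*, the VGLUT of the thalamus, brainstem and early cortical neurons, was the most abundant of the 6 genes, with nearly equal means in the genotypes. It lies at chr7:51622006-51671119 on the plus strand. It reached 140.7, 112.1, 140.4, 77.0 and 149.7 CPM in the 5 wild-type embryos, and in the mutants 151.7, 153.4, 109.0, 90.3 and 107.4 CPM. The ranges overlapped almost wholly. Means were 124 ± 29.8 CPM for wild-type and 122 ± 28.5 CPM for mutant embryos, and the log2 fold change was −0.020 (95% interval −0.42 to 0.38, FDR = 0.973 by edgeR's quasi-likelihood test).

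*Slc17a7*, the VGLUT of mature cortical and hippocampal pyramidal neurons, was near the limit of detection in most libraries. It lies at chr7:45163949-45176142 on the plus strand. Its level was 0.411, 0.812, 4.85, 0 and 0.369 CPM in wild-type embryos and 0.632, 2.23, 0.238, 0.803 and 3.44 CPM in Lmx1a-/- embryos. The genotypes overlapped, and the log2 fold change of 0.15 had a 95% interval of −1.89 to 2.19 (FDR = 0.960 by the same edgeR test), too wide to place a change in either direction. The 3 libraries above 1 CPM, wild-type embryo 3 and Lmx1a-/- embryos 2 and 5, also had the highest levels of *Neurod6*, a transcription factor of cortical pyramidal neurons, at 59.6, 29.3 and 22.3 CPM. In the other 7 libraries *Neurod6* was at most 15.7 CPM. Not all genes of the glutamatergic neuron list shared this order. *Neurod1* and *Neurod2* were also highest in these 3 libraries, while *Tbr1*, *Bcl11b*, *Fezf2*, *Nhlh1* and *Mef2c* were not. *Bcl11b* was highest in wild-type embryo 4, at 155 CPM. The part of captured cortical neurons in the *Slc17a7* levels was not tested. The glutamatergic neuron list as a whole summed to 366 to 591 CPM in wild-type and 477 to 597 CPM in Lmx1a-/- libraries, and of its 8 genes 1 rose, *Fezf2*. At the same threshold 1.72% of all genes rose.

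To set the genes against each other, levels were divided by kb of exon, with the exons of all annotated transcripts of a gene merged. The values depend on that annotation. On this scale the order in wild-type CH was *Slc17a6* at 23.0 ± 5.53, *Slc17a8* at 4.86 ± 1.17, *Slc18a2* at 3.67 ± 0.747, *Slc17a7* at 0.239 ± 0.373, *Slc32a1* at 0.0850 ± 0.106 and *Slc18a3* at 0.0362 ± 0.0653 CPM per kb. The ranges of *Slc17a8* (3.18 to 6.08) and *Slc18a2* (2.79 to 4.55) overlapped, although *Slc17a8* was the higher of the pair in 5 of 5 wild-type libraries. The 3 lowest genes overlapped one another. In Lmx1a-/- CH, *Slc17a6* stayed first at 22.7 ± 5.28 CPM per kb and *Slc18a2* was next at 4.57 ± 0.704. *Slc17a8* stood at 0.425 ± 0.141 CPM per kb, and its range (0.276 to 0.627) overlapped those of *Slc17a7* (0.0442 to 0.639) and *Slc32a1* (0.0122 to 0.634). *Slc17a8* was above *Slc18a2* in 0 of 5 mutant libraries.

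The makeup of VGLUT transcripts followed from these levels. *Slc17a8* supplied 18.2%, 18.6%, 10.6%, 23.6% and 17.9% of VGLUT counts per kb in wild-type embryos 1 to 5, and 2.17%, 1.07%, 2.33%, 1.61% and 2.04% in the mutants. The means were 17.8% ± 4.66 and 1.84% ± 0.512, a difference of 15.96 percentage points. *Slc17a6* made up 76.4% to 86.4% in wild-type libraries and 94.9% to 97.5% in the mutants, and *Slc17a7* at most 3.05% in any library. As a ratio within a library these shares need no scaling between libraries, and they use the gene that was chosen for its difference, so no test was made.

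**Figure D3:**
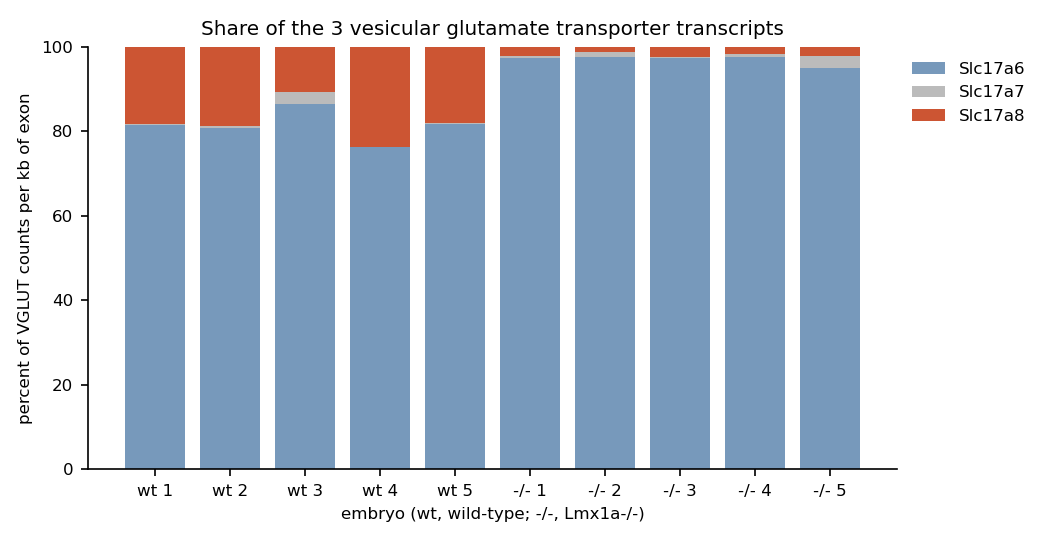
Share (percent) of *Slc17a6*, *Slc17a7* and *Slc17a8* in the counts per kb of exon of the 3 VGLUT genes, with 1 stacked bar per embryo. *Slc17a8* takes 10.6% to 23.6% in wild-type and 1.07% to 2.33% in Lmx1a-/- embryos, and *Slc17a6* nearly all of the rest.

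*Slc32a1*, which loads GABA and glycine, was scarce. It lies at chr2:158610767-158615748 on the plus strand, and an antisense gene, *Gm14205*, shares 697 of its exon bases. The strand setting of the counting is not named, so how reads over the shared bases were counted is not known. Wild-type embryos had 0.747, 0, 0.206, 0.0519 and 0.185 CPM, from 20, 0, 7, 1 and 5 counts. Lmx1a-/- embryos had 0.864, 0.543, 0.0341, 0.36 and 1.77 CPM, from 26, 10, 1, 13 and 51 counts. The genotypes overlapped, and the gene entered the test through 4 mutant libraries and 1 wild-type library. The log2 fold change was 1.54 (95% interval −0.50 to 3.58, FDR = 0.457 by edgeR's quasi-likelihood test). It was −0.022 with *Xist* as a covariate, so its sign depended on that choice. The 3 libraries with the most *Slc32a1*, Lmx1a-/- embryos 5 and 1 and wild-type embryo 1, also had the most *Gad1*, a GABA-synthesizing enzyme, at 8.80, 5.75 and 4.37 CPM. The GABAergic list summed to 59.4 to 111 CPM in wild-type and 69.9 to 252 CPM in Lmx1a-/- libraries, with the highest value in Lmx1a-/- embryo 5. Of its 10 genes 1 rose, *Dlx5*, a homeobox gene of the ventral telencephalon (7.72 ± 3.99 to 26.8 ± 10.8 CPM, log2 fold change 1.81, FDR = 0.0210 by the same edgeR test). Of all genes 1.72% were called higher. The part of GABAergic cells in the *Slc32a1* levels was not tested.

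*Slc18a2* was the third member with a clear signal in all libraries. The gene lies at chr19:59260896-59296012 on the plus strand, with 111 exon bases shared with the antisense gene *Gm29261*. Its level was 22.2, 19.2, 16.1, 14.6 and 23.8 CPM in the 5 wild-type embryos, against 19.7, 24.9, 20.6, 25.8 and 28.4 CPM in the 5 mutants. The mutants lay toward the upper part of a shared range. Means were 19.2 ± 3.90 CPM for wild-type and 23.9 ± 3.68 CPM for mutant embryos, and the log2 fold change was 0.32 (SE 0.155, 95% interval −0.016 to 0.65, FDR = 0.331 by edgeR's quasi-likelihood test), which did not pass the threshold.

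The enzymes and uptake transporters that define monoaminergic neurons were near 0 beside this level. *Th*, which makes the precursor of dopamine and noradrenaline, was at most 1.63 CPM in any library, *Tph2*, the neuronal serotonin enzyme, at most 0.366 CPM, and *Slc6a4*, the serotonin transporter, at most 1.08 CPM. *Dbh* was at 0 in all but Lmx1a-/- embryo 5, and *Fev* in all but wild-type embryo 5. The 10 genes of the monoaminergic list summed to 1.81 to 7.74 CPM in wild-type and 1.86 to 5.05 CPM in Lmx1a-/- libraries, less than *Slc18a2* alone in each group. Platelets and mast cells also use VMAT2. Their list summed to 64.9 to 120 CPM in wild-type and 71.0 to 106 CPM in Lmx1a-/- libraries, of which *Kit*, a receptor not confined to these cells, gave 60.3 to 106 CPM. The platelet chemokine *Ppbp* fell from 4.19 ± 5.02 to 0.179 ± 0.243 CPM (FDR = 0.0514 by edgeR's quasi-likelihood test, overlapping ranges), the 1 gene of 5 tested on that list that was called. Of all genes 2.29% were called lower. Which cells held *Slc18a2* was not tested.

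*Slc18a3* lies within the *Chat* locus, at chr14:32462438-32464850 on the minus strand, as a single exon that shares no exon base with *Chat*. It had 0, 0, 0, 7 and 2 counts in wild-type embryos and 0, 2, 0, 0 and 0 counts in Lmx1a-/- embryos, too few to be tested. Its highest level, 0.363 CPM, was in wild-type embryo 4. That library also had the most *Isl1* (33.7 CPM) and *Lhx8* (34.0 CPM), transcription factors of basal forebrain cholinergic neurons, against at most 10.5 and 12.4 CPM elsewhere. Not all genes of the cholinergic list shared this order. *Slc5a7*, the choline transporter, was at 2.34 CPM there and up to 4.51 CPM elsewhere, and *Gbx2* was at 0. *Chat* itself, which makes acetylcholine, was at most 0.0519 CPM. The cholinergic list summed to 71.1 CPM in this library, nearly all of it from *Isl1* and *Lhx8*, and to 7.19 to 22.6 CPM in the others, with 0 of 5 tested genes called. The part of such neurons was not tested.

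Taking the 4 tested relatives of *Slc17a8* as a group, 0 passed the threshold and 0 had an unadjusted p under 0.05 by edgeR's quasi-likelihood test, which 16.4% of all genes had. EdgeR's likelihood ratio test also called 0, and so did DESeq2, which gave no adjusted p for *Slc32a1*. Of the 6 genes, 5 passed the filter on low counts and *Slc18a3* did not.

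The genes whose levels ran most closely with *Slc17a8* over the 10 libraries, by the root mean square difference of their centred log2 profiles, were *Ccdc3* (0.592), *Tacr3* (0.651), *Adamts1* (0.681), *Gm45324* (0.700) and *Lmo2* (0.709), against a median of 1.81 over 16716 genes. *Ccdc3*, a secreted coiled-coil protein, went from 14.5 ± 2.25 to 1.58 ± 0.750 CPM, and *Tacr3*, the neurokinin B receptor, from 16.1 ± 4.63 to 1.78 ± 1.05 CPM. *Adamts1*, a matrix protease, went from 58.6 ± 14.4 to 11.2 ± 3.33 CPM, and *Lmo2*, a LIM-only cofactor, from 138 ± 40.5 to 26.7 ± 4.86 CPM. *Ccdc3*, *Adamts1* and *Lmo2* are among the CH markers of the study. These profiles are dominated by the genotype step that *Slc17a8* was chosen for. With each genotype centred on its own mean, the closest were *Naglu* (0.157), *Cyp2d22* (0.160), *Ptcd1* (0.188), *Rhoc* (0.191) and *Sema3b* (0.195), against a median of 0.449, and none of these is in the first list.

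No tested gene around *Slc17a8* on chromosome 10 had a difference near its own. Of 10 annotated genes within 500 kb, 6 were tested, 1 was called lower and 0 higher. The shares over all genes were 2.29% lower and 1.72% higher, and 6 genes are too few to compare with them. The nearest tested gene, *Scyl2*, with its start 65 kb away, had 71.2 ± 3.73 and 66.1 ± 4.82 CPM (log2 fold change −0.11, edgeR quasi-likelihood FDR = 0.533). *Gas2l3*, which encodes a protein that links actin and microtubules, with its start 177 kb away, fell from 95.8 ± 14.9 to 63.6 ± 10.3 CPM (FDR = 0.0359 by edgeR, with a log2 fold change of −0.59 and an SE of 0.131). The other tested neighbours had log2 fold changes of −0.065 (*Actr6*), 0.21 (*Anks1b*), 0.22 (*Uhrf1bp1l*) and 1.55 (*Ano4*, below 1 CPM in both genotypes on average), and none of these 4 passed.

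**Figure D4:**
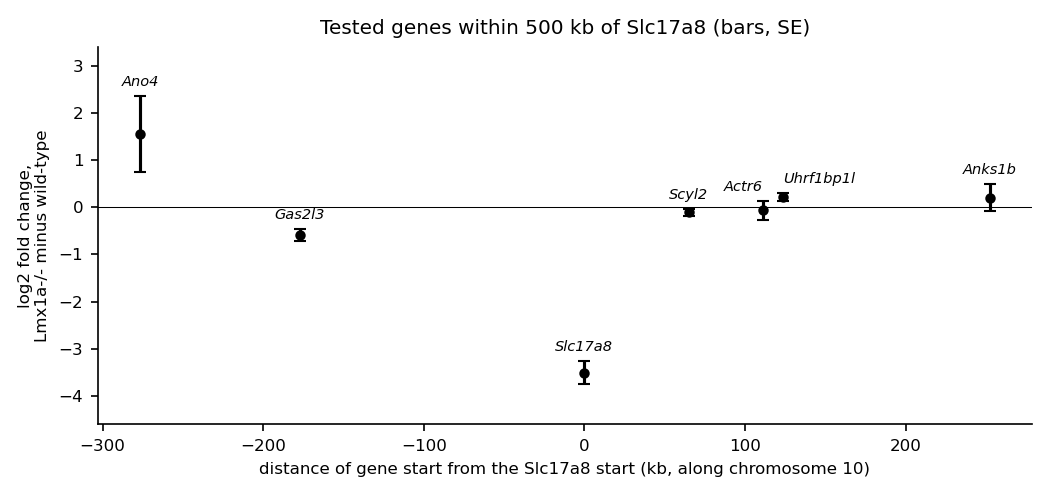
Log2 fold change (Lmx1a-/- minus wild-type, bars SE) of *Slc17a8* and the 6 tested genes within 500 kb, by the distance of their start from that of *Slc17a8* in kb. *Slc17a8* stands at −3.51, *Gas2l3* at −0.59, and *Scyl2*, the nearest, at −0.11.

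The wider machinery of transmitter handling was described with a list of 134 genes, 108 of them tested. Of these, 0 fell and 2 rose at an FDR under 0.1 by edgeR's quasi-likelihood test, 1.85% in all against 4.02% of all genes. DESeq2 called 1 lower, *Vamp2*, a vesicle fusion protein, and 7 higher. At an unadjusted p under 0.05 in the edgeR test, 3 were lower and 15 higher, and the median log2 fold change was 0.034. Such a p was reached by 16.4% of all genes in either direction, so the total of the list was near that share.

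Of 8 other members of the SLC17 and SLC18 families, 3 were tested and none was called. *Slc17a5*, the lysosomal sialic acid carrier sialin, was at 20.7 ± 2.80 and 21.9 ± 3.20 CPM. *Slc18a1* (VMAT1), the monoamine transporter of endocrine cells, was at 0.689 ± 0.520 and 0.361 ± 0.226 CPM. *Slc17a1*, *Slc17a3* and *Slc17a4*, kidney and gut carriers, were at 0 in every library.

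Enzymes that make and break transmitters gave 15 tested genes of 21, with 0 called and a median of −0.045. *Maob*, which degrades monoamines, was at 1.65 ± 0.472 and 0.816 ± 0.408 CPM (log2 fold change −0.998, FDR = 0.257), and *Gad1* at 2.88 ± 0.867 and 4.54 ± 2.73 CPM (0.65, FDR = 0.406), both by edgeR's quasi-likelihood test. Carriers for uptake at the plasma membrane gave 15 tested of 23, with 0 called and a median of 0.18. *Slc6a13*, the GABA transporter GAT2, was at 0.365 ± 0.263 and 1.38 ± 0.891 CPM (1.92, FDR = 0.188), and *Slc38a1*, a glutamine carrier, at 309 ± 31.7 and 351 ± 28.2 CPM (0.18, FDR = 0.296).

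Subunits and partners of the vacuolar proton pump gave 21 tested of 26, with 0 called. Their log2 fold changes were small, from −0.46 to 0.41, with 16 of 21 below 0 and a median of −0.096. *Atp6v1a*, the catalytic subunit, was at 70.6 ± 4.84 and 60.6 ± 7.89 CPM (−0.22, edgeR quasi-likelihood FDR = 0.270), and *Atp6ap2*, an accessory protein, at 23.2 ± 3.39 and 30.8 ± 3.86 CPM (0.41, FDR = 0.115). Glutamate receptor genes gave 24 tested of 26, with 0 called and a median of 0.086. *Grin2b*, an NMDA receptor subunit, was at 4.22 ± 3.79 and 15.8 ± 16.6 CPM (1.89, FDR = 0.207 by the same edgeR test).

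The 2 genes that rose both belong to vesicle release, where all 30 listed genes were tested. Of these, 23 had a log2 fold change above 0, and the median was 0.31 against −0.00494 for all genes. The called genes were 6.67% of the group, where 4.02% of all genes were called, 1.72% of them higher. The ranges of the genotypes did not overlap for 4.44% of all genes. *Sv2c*, a vesicle glycoprotein, was at 4.03, 2.35, 2.53, 3.58 and 3.07 CPM in the 5 wild-type libraries and at 10.01, 9.62, 15.02, 16.6 and 8.14 CPM in Lmx1a-/- embryos. Every mutant library was above every wild-type library, with means of 3.11 ± 0.706 and 11.9 ± 3.70 CPM (FDR = 0.00149 by edgeR, with a log2 fold change of 1.93 and an SE of 0.242). *Syn1*, the vesicle phosphoprotein synapsin I, was at 13.8, 11.1, 15.3, 7.84 and 13.8 CPM in wild-type and at 16.2, 27.0, 18.0, 21.9 and 35.1 CPM in Lmx1a-/- embryos. These ranges did not overlap either, and the means were 12.4 ± 2.95 and 23.6 ± 7.63 CPM (FDR = 0.0514 by edgeR, with a log2 fold change of 0.93 and an SE of 0.225). *Sv2c* passed in 10 of 10 fits that left out an embryo. *Syn1* passed in 7, and its FDR was 0.118 without wild-type embryo 2, 0.118 without Lmx1a-/- embryo 2 and 0.115 without Lmx1a-/- embryo 5. With *Xist* as a covariate the log2 fold change was 1.55 for *Sv2c* (FDR = 0.302) and 0.77 for *Syn1* (FDR = 0.610) in the edgeR test. Over all genes that fit called 31 in place of 870. *Xist* went with genotype (correlation −0.83 over 10 libraries), so embryo sex and genotype cannot be told apart in it.

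**Figure D5:**
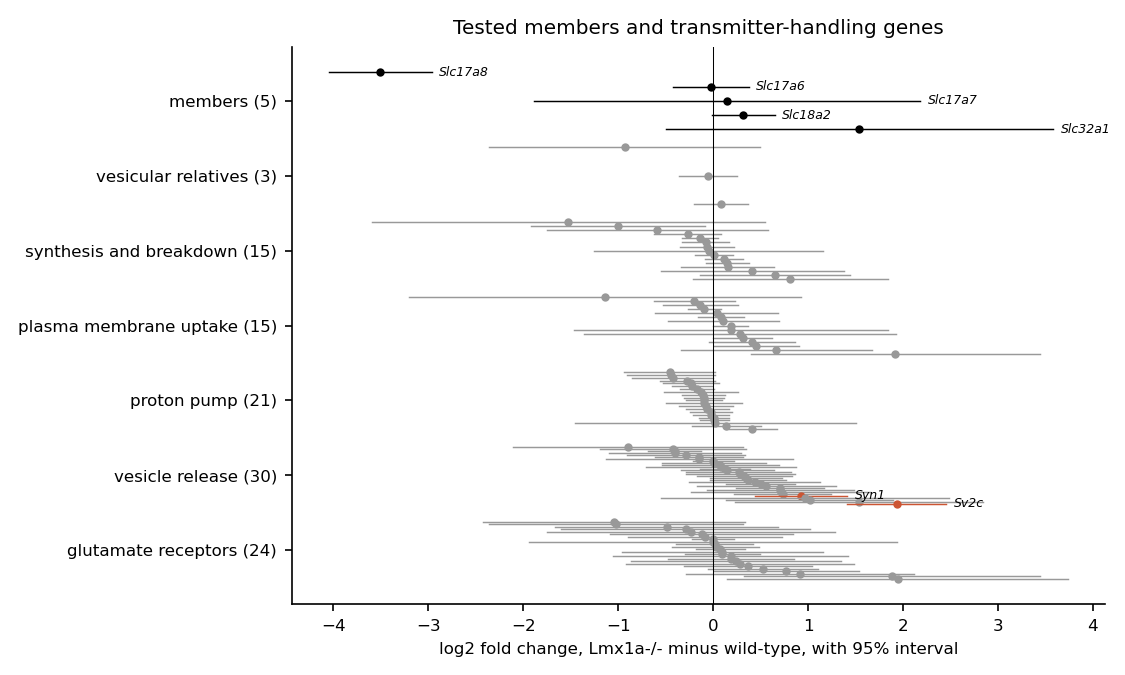
Log2 fold changes (points, Lmx1a-/- minus wild-type) with 95% intervals (lines) of the 5 tested vesicular transporters (black) and of the tested genes of 6 transmitter-handling groups (grey, or orange where called higher), with the number of genes after each name. *Slc17a8* lies at −3.51 and apart from the rest, and *Sv2c* and *Syn1* are the called genes of the groups.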

How the data were processed

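Per the labels and the methods of the study, the authors trimmed paired reads with Trimmomatic after FastQC 0.11.8, mapped them with STAR 2.7.1a (GRCm38, Ensembl genes) and counted reads per gene with HTSeq 0.11.2, with no strand setting named. The deposited values are raw counts. Of 52508 rows, 281 exact repeats were dropped. Each library is 1 embryo, grouped by its label.

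A gene entered the test with 10 or more counts in 3 or more libraries (21664 genes), using R 4.3.3 and edgeR 4.0.16 (TMM scaling, trended dispersion, quasi-likelihood test, Benjamini-Hochberg adjustment over all of them, FDR under 0.1). The SE is the log2 fold change over the square root of F. Positions and exon lengths are those of GENCODE for GRCm38, and promoters those of RefSeq (GRCm38.p6, all 6 genes matched). Profiles used log2 CPM with a prior count of 2 and genes with a mean of at least 1 CPM.

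The genes and lists were chosen with earlier results of these data known. Named are all 6 transporters, in each pathway group the called genes or otherwise the 2 with the smallest p, neighbours within 500 kb, the 5 closest profiles, *Lmx1a* and *Xist*. Some genes under this rule are not reported here. Cell type markers cited beside a transporter, *Vamp2* and family members at 0 were chosen after their values were seen. Same-numbered embryos did not deviate together (correlations −0.099 to 0.013). Alternatives were other scalings, filters, tests (DESeq2 1.42.0 among them), covariates and omitted embryos. The fit was tested on simulated data.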

Additional observations from a re-analysis of the deposited data

Results flagged for a closer look

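Dixon's test at the 95% level was applied to the 12 groups formed by 6 transporters and 2 genotypes. In it 4 libraries stood apart from the other 4 of their genotype. That level assumes normally distributed values, so for counts near 0 with ties it gives no expected number of flags. *Slc17a7* was at 4.85 CPM in wild-type embryo 3, where the next wild-type library had 0.812 CPM. *Slc32a1* was at 0.747 CPM in wild-type embryo 1, next to 0.206 CPM. *Slc18a3* was at 0.363 CPM in wild-type embryo 4, next to 0.0739 CPM, and at 0.109 CPM in Lmx1a-/- embryo 2, where the other 4 mutants had 0. All 4 values belong to the 3 scarce genes of the set. The last rests on 2 counts, and a lone library above 0 beside 4 at 0 is flagged at any level.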

How the results depend on the processing

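The log2 fold change of *Slc17a8* was −3.78 to −3.48 over all other settings, except −2.88 with the choroid plexus covariate, and −3.69 to −3.38 with an embryo left out. No other transporter passed in any setting (DESeq2 gave no adjusted p for *Slc32a1*). The share difference of *Slc17a8* was 14.5 to 17.8 points with an embryo left out, and 14.3 points from counts without division by exon length. Of the 134 listed genes, those called higher numbered 1 at an FDR of 0.05, 7 with DESeq2, 6 with the likelihood ratio test, 0 with the *Xist* covariate, 1 with the choroid plexus covariate, 0 in libraries with Y-linked transcripts only (1 wild-type embryo against 5 mutants, with the lone sample assumed to vary like the others), and 1 to 5 with an embryo left out (1 without wild-type embryo 2 or Lmx1a-/- embryo 2 or 5, 4 without Lmx1a-/- embryo 1 or 3, 5 without wild-type embryo 3). Those called lower numbered 1 with DESeq2 (*Vamp2*) and 0 to 1 with an embryo left out (*Vamp2* without Lmx1a-/- embryo 1 or 3). Over all genes, calls went from 870 to 1766 with DESeq2, 1360 with the likelihood ratio test, 448 at an FDR of 0.05, 31 with the *Xist* covariate, 44 with the choroid plexus covariate, 130 in libraries with Y-linked transcripts only and 451 to 1059 with an embryo left out, of which 504 and 551 were without wild-type embryos 1 and 2 and 578, 451 and 546 without Lmx1a-/- embryos 2, 4 and 5. With the embryo number as a replicate block, 601 genes were called, 3 listed genes rose and 0 fell, and *Slc17a8* was at −3.52, and 0 of 5 numbers matched best with their own. The cause of these differences was not tested. *Slc17a6*, *Slc17a7* and *Slc32a1* changed sign in 6, 7 and 2 of 24 settings without ever being called. Below about 1 CPM, depth limits what *Slc17a7*, *Slc32a1* and *Slc18a3* can show.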
